A study of Mus musculus with 12 samples.

Results

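miR-218 (mmu-miR-218) was followed as 1 of the 469 mature miRNAs listed in the count files of miRNA-Seq on mouse frontal cortex (FCx) and hippocampus (HP). It was chosen by name, and its values are the counts in the row of that name. All mice were male C57BL/6J, an inbred strain, killed at the age of 8 weeks with no experimental treatment, and neither region carried a transgene. The FCx tissue was cortex cut from a brain slice that the labels place at negative Bregma coordinates, which by the usual sign would lie behind the Bregma landmark of the skull. Whether that sign is meant is not known, so the exact part of the cortex is uncertain, while the whole hippocampus was taken. Tissue from 3 mice was pooled for each region, and 3 libraries were made from each RNA pool, so n = 3 libraries per region, and their spread is technical and holds no variation between mice. What sets the 3 apart is the index, 6 nt added to the 5′ adaptor at the end that meets the first nucleotide of the miRNA (UUAGGC for index 3, CAGAUC for index 7 and GGCUAC for index 11). Each index was used once in FCx and once in HP. The 3 libraries of a region were also prepared separately, so within a region index and preparation cannot be told apart. Every library was sequenced both alone (individual lane) and mixed with the others of its region (pooled lane), and these runs were summed.

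A miRNA is cut from a hairpin in a longer transcript, and the strand that is kept guides silencing of mRNAs that pair with its seed, bases 2 to 8 from its 5′ end. The opposite arm of the hairpin, written with a star, is usually degraded. miR-218 comes from the same mature sequence in a pair of hairpins, Mir218-1 and Mir218-2, which lie within Slit2 and Slit3. These genes encode secreted ligands of the Robo receptors and are known for guiding axons and migrating neurons. miR-218 itself is known as a neuronal miRNA that is very abundant in motor neurons.

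The sequences of the mature miRNA, of its star forms and of the hairpins show why the counts of miR-218 could not be divided between the genes. They are given 5′ to 3′ as in RefSeq. For the mature forms the seed is in capitals.
miR-218: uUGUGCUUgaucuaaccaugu
miR-218-1*: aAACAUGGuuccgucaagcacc
miR-218-2*: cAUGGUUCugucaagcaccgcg
In the hairpins the mature miR-218 is in capitals.
Mir218-1: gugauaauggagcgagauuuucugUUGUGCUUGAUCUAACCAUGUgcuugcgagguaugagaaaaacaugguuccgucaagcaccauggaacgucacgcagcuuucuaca
Mir218-2: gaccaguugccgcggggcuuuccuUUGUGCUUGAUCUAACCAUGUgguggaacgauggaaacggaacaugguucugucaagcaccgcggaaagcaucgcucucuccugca
Both hairpins are 110 nt long and share 71 bases when laid side by side without gaps. Their mature arms are identical over all 21 nt, and the first base that differs lies at position 23, counted from the mature 5′ end. The star forms overlap by 19 bases with 1 difference, so at the 2 mismatches that the authors' alignment allowed, reads of the star forms may also be shared.

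In the mouse genome build NCBIM37, the build of the deposited alignments, Mir218-1 (ENSMUSG00000065603.1) lies on the plus strand at chr5:48615181-48615290, in intron 16 of the 39-exon transcript Slit2-006. Slit2 spans chr5:48374394-48697521 on the same strand. Mir218-2 (ENSMUSG00000065583.1) lies on the plus strand at chr11:35430318-35430427, in intron 14 of the 36-exon transcript Slit3-001. Slit3 spans chr11:34934726-35522009, also on the plus strand. Neither hairpin overlaps an annotated exon of its host gene. The mature sequence occupies chr5:48615205-48615225 and chr11:35430342-35430362.

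miR-218 was detected in all 6 libraries, at a moderate level that differed more between indexes than between regions. In FCx it had 152 of 391410 miRNA counts with index 3, 368 of 1461732 with index 7 and 1700 of 652449 with index 11. In HP the counts were 3187 of 3206221, 3537 of 4956117 and 23189 of 4053518 in the same order. The HP libraries were deeper, so that the HP values carry the smaller counting error.

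Scaled to counts per 1000000 miRNA counts in the library (CPM), miR-218 in FCx was at 388 with index 3 (95% Wilson interval 331 to 455), 252 with index 7 (227 to 279) and 2606 with index 11 (2485 to 2732). In HP it was at 994 (960 to 1029), 714 (691 to 738) and 5721 (5648 to 5795) CPM. The intervals cover counting error only, since reads were not marked with molecular identifiers. Index 7 gave the lowest and index 11 the highest level in both regions, and within each index the HP library was above the FCx library. The regions overlap when the indexes are ignored, because the FCx library with index 11 was above the HP libraries with indexes 3 and 7.

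**Figure D1:**
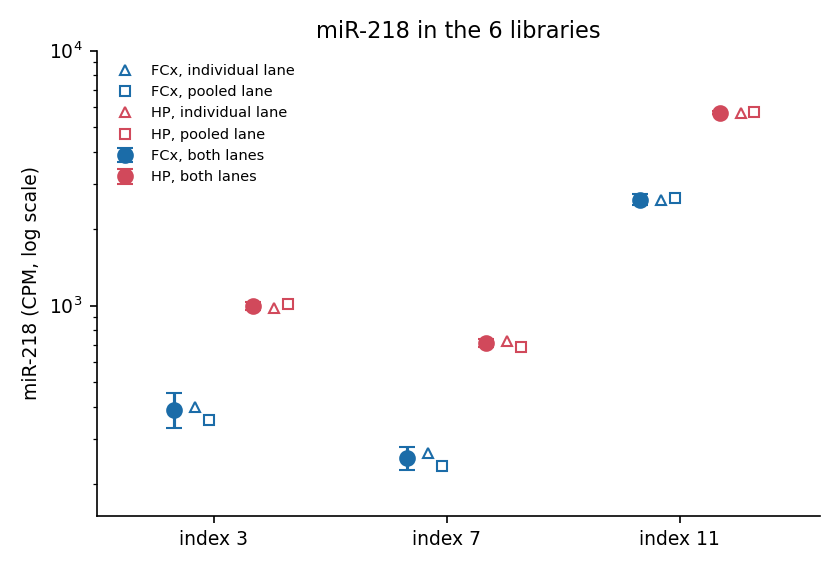
Level of miR-218 in CPM on a log scale for each index (horizontal axis) in FCx and HP. Filled circles are the summed lanes with 95% Wilson intervals, and open symbols are the individual and pooled lane of the same library. Index 11 stands apart in both regions, at 2606 and 5721 CPM.

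The order of the levels was the same in both runs of the libraries. In the individual lanes the FCx libraries gave 402, 264 and 2595 CPM with indexes 3, 7 and 11, and the HP libraries 982, 729 and 5705 CPM. In the pooled lanes the FCx values were 357, 236 and 2640 CPM and the HP values 1016, 686 and 5768 CPM. The ratio of the pooled to the individual lane lay between 0.889 and 1.03 over the 6 libraries, far less than the spread between indexes.

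The mean over indexes was 1082 ± 1321 CPM (SD, n = 3) in FCx and 2476 ± 2813 CPM (SD, n = 3) in HP. The libraries with index 11 decided these means, which were 320.0 CPM in FCx and 854 CPM in HP without them. By this mean miR-218 was number 49 of the 420 miRNAs listed in FCx and number 29 of the 452 in HP. In single libraries its place moved with the index, from 82 (index 3) and 87 (index 7) to 27 (index 11) in FCx; in HP the places were 54, 56 and 16.

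In FCx the miRNAs next above miR-218 by mean level were miR-411 (1271 ± 837 CPM, SD, n = 3) and miR-129-5p (1248 ± 786), and those next below were miR-30a* (1010 ± 720) and miR-541 (948 ± 426). In HP they were miR-125a-5p (2679 ± 1021) and miR-101a (2612 ± 1959) above, and miR-221 (2430 ± 1734) and miR-433 (2406 ± 1807) below. None of these neighbours differed from miR-218 by more than the SD of its own level. CPM values of different miRNAs also carry differences in how well each is ligated, so this order describes counts and not molecules in the tissue.

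The index comparison asks how far the count differs between libraries with different tags next to the miRNA. In FCx miR-218 was 10.3 times as high with index 11 as with index 7 (counting interval 9.25 to 11.6), and in HP 8.02 times (7.74 to 8.30). Index 11 against index 3 gave 6.71 in FCx and 5.76 in HP, and index 3 against index 7 gave 1.54 and 1.39. The same order of indexes was therefore found in both RNA pools.

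When the index was tested in edgeR, with a term for the region, the fitted range between indexes was 3.34 on the log2 scale (adjusted p = 3.29e-23 over 431 miRNAs). This call is shared by most miRNAs, since 264 of the 431 passed (61.3%). Among the 139 miRNAs that averaged 100 CPM or more, 29 (20.9%) were highest with index 11 in both regions, as miR-218 was. Taking for each miRNA the region with the smaller range, the highest index of miR-218 was 8.02 times the lowest, against a median of 3.28 over these 139 miRNAs, and 35 of them had a larger range. The part of ligation, amplification, separate preparation and index sorting in this range was not tested.

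The comparison of the brain regions asks whether miR-218 differs between FCx and HP. Its level in HP was 2.56 times that in FCx with index 3 (counting interval 2.18 to 3.01), 2.83 times with index 7 (2.55 to 3.16) and 2.20 times with index 11 (2.09 to 2.31). HP was thus higher in 3 of 3 indexes, and none of the intervals reached 1. The individual lanes alone gave 2.44, 2.76 and 2.20, and the pooled lanes alone 2.84, 2.91 and 2.18. In bulk tissue, more cells that hold miR-218 and more miR-218 per cell cannot be told apart.

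The mean of the within-index differences was 1.33 on the log2 scale of CPM (SD 0.19 over 3 indexes). That put miR-218 at place 4 among the 139 miRNAs of at least 100 CPM, whose median difference was -0.04. Of these miRNAs, 30 (21.6%) were higher in HP within every index. Only 3 of them (2.16%) were at least 2-fold higher in HP within every index, namely miR-218, miR-7a and miR-7b. miR-7a, which has a hairpin in the Hnrnpk gene and more than 1 locus, so that its counts cannot be given to that gene alone, had ratios of 3.85, 4.47 and 2.63, and its relative miR-7b had 2.96, 2.76 and 2.51. The miRNA first in the mean, miR-382*, did not reach 2-fold in every index. At least 2-fold higher in FCx within every index were 6 of the 139.

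**Figure D2:**
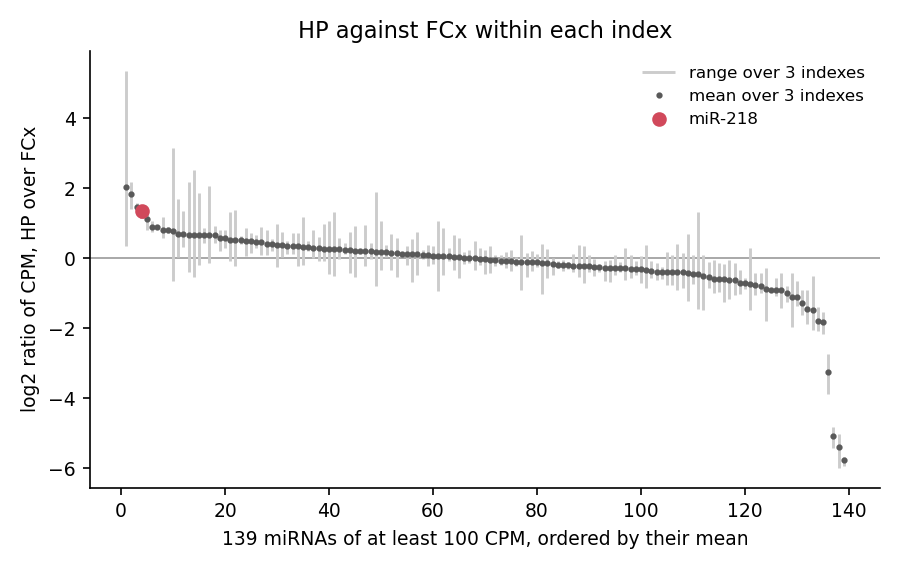
Log2 ratio of CPM in HP over FCx for the 139 miRNAs of at least 100 CPM, ordered by their mean over the 3 indexes. Points are means and bars the range over indexes, and miR-218 (mean 1.33) is marked in red at place 4 from the left.

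How this difference was called depended on whether the index was in the model. In edgeR without the index, the log2 difference HP over FCx was 1.80 (SE 1.19, unadjusted p = 0.160 and adjusted p = 0.992 in edgeR's test across 431 miRNAs), and miR-218 was not called. The background was low as well, at 2 of 431 miRNAs (0.464%), neither of them higher in HP, with 17 at an unadjusted p under 0.05. When the index was added as a block, so that HP was set against FCx within each index, the log2 difference was 1.75 (SE 0.30, adjusted p = 2.33e-07 in edgeR), and 55 of 431 miRNAs were called higher in HP (12.8%) and 22 higher in FCx (5.10%). With the block and library totals in place of TMM scaling, the log2 difference was 1.33 (SE 0.28, adjusted p = 3.69e-05 in edgeR), with 20 miRNAs called higher in HP (4.64%) and 36 in FCx (8.35%). By its p in the blocked TMM fit miR-218 was number 16 of the 431. The fit without the index rested on the libraries with index 11, since the log2 difference became -0.60 without that of HP (adjusted p = 0.993 in edgeR) and 3.65 without that of FCx (adjusted p = 0.445). With the block, miR-218 stayed called when any 1 index was left out (log2 difference 1.42 to 1.64, adjusted p = 0.00139 to 0.0228 in edgeR).

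TMM moved the median of all 431 miRNAs to 0.37 without the block and 0.38 with it, against 0.01 with library totals. Relative to that median miR-218 was higher in HP by 1.43, 1.36 and 1.32 on the log2 scale in the 3 fits, so its distance from the median was similar under both scalings. An exact permutation test of log2 CPM over libraries, which ignores the index, gave p = 0.4 (two-sided, smallest possible 0.1). Exchanging the regions within each index, again exact and two-sided, gave p = 0.25, which is the smallest value that 3 pairs allow.

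The star forms were rare, and they did not follow the index as miR-218 did. Counts of miR-218-1*, from the Slit2 hairpin, were 0, 8 and 1 in FCx with indexes 3, 7 and 11 and 5, 67 and 4 in HP. Counts of miR-218-2*, from the Slit3 hairpin, were 1, 9 and 0 in FCx, against 14, 103 and 7 in HP. Index 7, with the lowest level of miR-218, had the most star counts in both regions.

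Summed over both star forms, the level was 2.55, 11.6 and 1.53 CPM in FCx with indexes 3, 7 and 11, and 5.93, 34.3 and 2.71 CPM in HP. As a share of all counts of miR-218 and its star forms this was 0.654% (Wilson interval 0.115 to 3.61), 4.42% (2.77 to 6.96) and 0.0588% (0.0104 to 0.332) in FCx. In HP the shares were 0.593% (0.380 to 0.924), 4.59% (3.96 to 5.31) and 0.0474% (0.0265 to 0.0849). The shares of the regions lay close to each other within every index, with means of 1.71% ± 2.36 in FCx and 1.74% ± 2.48 in HP (SD, n = 3), and without index 7 the means were 0.356% and 0.320%. The number of miR-218 counts per star count went from 20.8 with index 7 to 2108 with index 11 in HP.

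The 96 miRNAs with a star in their name did not show this pattern as a whole. With indexes 3, 7 and 11 they held 1.11%, 0.486% and 0.650% of all counts in the FCx libraries and 0.862%, 0.803% and 0.452% in those of HP. In edgeR's index test, miR-218-1* had an adjusted p of 8.58e-05 and miR-218-2* of 2.52e-05. Between regions neither was called, with log2 differences HP over FCx of 0.98 and 1.57 without the block (adjusted p = 0.992 for both in edgeR), and 1.11 (adjusted p = 0.382) and 1.70 (adjusted p = 0.0569) with it.

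**Figure D3:**
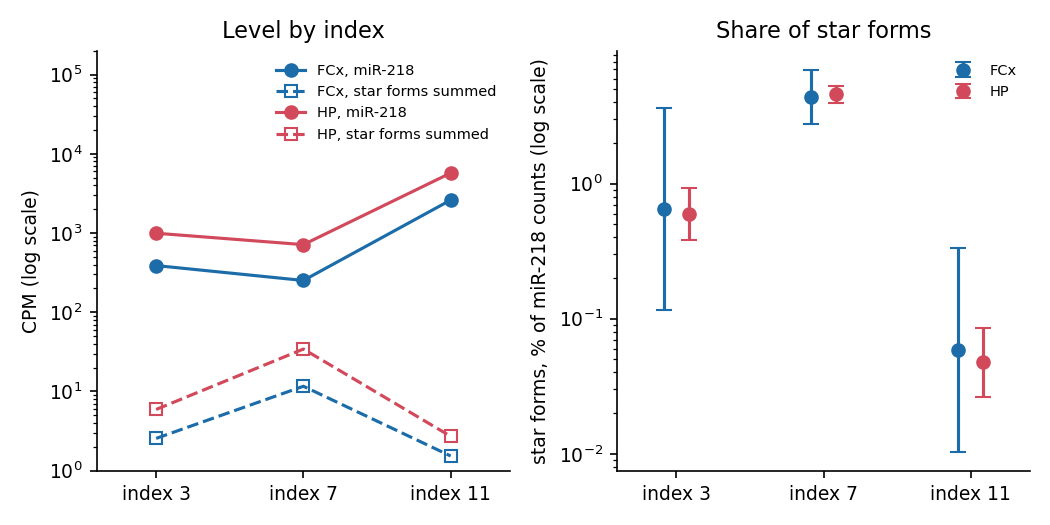
Left, level in CPM (log scale) of miR-218 (circles) and of its summed star forms (squares) by index in FCx and HP. Right, share of the star forms among all miR-218 counts in percent (log scale) with 95% Wilson intervals, highest with index 7 at 4.42% in FCx and 4.59% in HP.

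The genome alignments show which bases of the hairpins were read. At the mature arms there were 151, 353 and 1647 alignments in FCx with indexes 3, 7 and 11, and 3076, 3436 and 22673 in HP, each a little below the count in the count files. Of these, 99.3%, 99.4% and 99.9% in FCx and 99.6%, 99.7% and 99.9% in HP began exactly at the annotated 5′ end of miR-218, which fixes the seed. The means were 99.55% ± 0.29 in FCx and 99.72% ± 0.12 in HP (SD, n = 3), and the regions overlapped (exact permutation test, two-sided, p = 0.4, smallest possible 0.1). The 5′ end was thus the same with all 3 indexes and in both regions, whatever the level.

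The 3′ ends were less informative. miR-218 is annotated with 21 nt, but between 93.2% and 99.7% of its alignments were 22 nt long in the 6 libraries. Among all genome alignments 22 nt was the leading length as well, at 68.3% to 90.3%, while 19 to 21 nt together made up 0.105% to 0.327% and 0 were longer than 23 nt. A length from these files can therefore not be read as the 3′ end of the miRNA.

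Alignments of 23 nt formed 4.64%, 0.850% and 0.0607% of those at the mature arm in FCx with indexes 3, 7 and 11, and 6.57%, 1.60% and 0.0706% in HP. Over all alignments of a library the share of 23 nt was 0.542% to 0.911%. The share for miR-218 was thus above that of its library with index 3 and below it with index 11, in both regions. For miR-218 the share was highest with index 3 and lowest with index 11 in both regions. Within each index it was higher in HP, with Wilson intervals that overlapped between the regions. When the index was ignored the regions overlapped (exact permutation test, two-sided, p = 0.6, smallest possible 0.1).

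The alignments were split almost evenly between the identical mature arms. Of the 31036 alignments that end before the first base that differs, 49.4% were placed at Mir218-1 (Wilson interval 48.8 to 49.9). A search of the genome, 1 chromosome excepted, found 2 exact sites for the first 22 bases, which are those at the hairpins. Of the 300 alignments that include the first differing base, 213 were placed at Mir218-1 and 87 at Mir218-2 (71.0% at Mir218-1, Wilson interval 65.6 to 75.8). The base is a C in Mir218-1 and a G in Mir218-2, and since mismatches were allowed and the last base may come from the adaptor, this split was not taken as a share of the genes.

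On the star arms, Mir218-1 had 0, 4 and 0 alignments in FCx with indexes 3, 7 and 11 and 0, 30 and 0 in HP, and Mir218-2 had 1, 9 and 0 in FCx and 16, 104 and 7 in HP. Since reads of the star forms may be shared, a placement at one hairpin does not show that this hairpin was its source: in HP with index 3 the count files list 5 counts of miR-218-1*, where the star arm of Mir218-1 had 0 alignments on either strand. In HP with index 11 they list 4, and there the sense strand of the star arm had 0 alignments and the opposite strand had 4. Between the arms of Mir218-2 there were 0, 2 and 0 alignments in FCx and 3, 24 and 6 in HP, most of which began at the first base after the mature arm, on the loop sequence below.
Mir218-2 loop fragment: gguggaacgauggaaacggaac
Mir218-1 had 0 alignments between its arms in all 6 libraries.

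**Figure D4:**
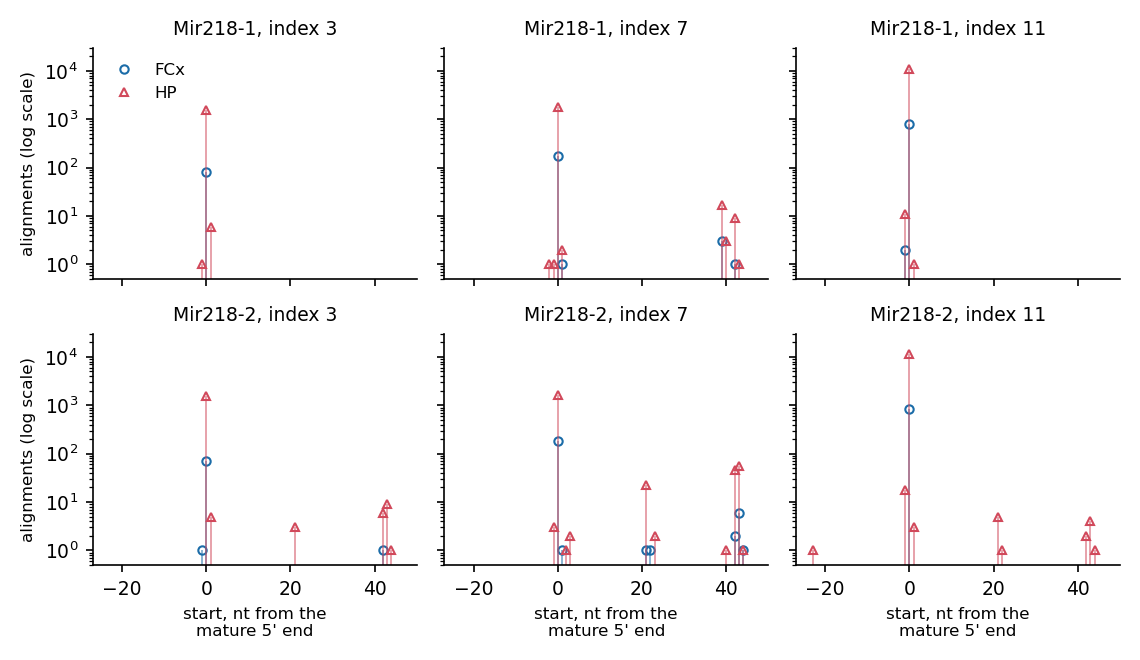
Number of alignments (log scale) by the distance of their start from the mature 5′ end in nt, for each hairpin (rows) and index (columns), with FCx as circles and HP as triangles. Nearly all begin at 0, the star arm lies near 39 to 44 and is best seen with index 7, and only Mir218-2 has alignments near 21.

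Sense reads of the host genes were few outside the hairpins. Over the rest of Slit2 (323 kb in all) there were 19 sense alignments of at least 20 nt in the 6 libraries together, against 15567 at Mir218-1. Over the rest of Slit3 (587 kb) there were 27, against 15976 at Mir218-2. On the antisense strand of Slit3 there were more, 364 of at least 20 nt and 7284 of any length, against 5 and 22 for Slit2. Small RNA libraries do not measure the Slit2 and Slit3 mRNAs, so the levels of the host genes in FCx and HP were not obtained.

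By their course over the 6 libraries, the miRNAs most like miR-218 were miR-99a, miR-100, miR-93, miR-22 and miR-101a. Likeness was the distance between log2(CPM + 1) values centred on each miRNA's mean, over the 138 other miRNAs of at least 100 CPM. The distances were 1.21, 1.68, 1.78, 1.98 and 2.02, with r of 0.95, 0.91, 0.90, 0.86 and 0.89 over the same 6 libraries, given as a description since all points share the indexes and library totals. Their sequences are shown to compare their first bases, which meet the index, with those of miR-218. Seeds are in capitals.
miR-99a: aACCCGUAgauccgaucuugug
miR-100: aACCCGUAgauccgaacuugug
miR-93: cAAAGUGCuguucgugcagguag
miR-22: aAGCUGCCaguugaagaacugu
miR-101a: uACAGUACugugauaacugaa
miR-101a alone of these begins with the same base as miR-218, and only miR-99a and miR-100, which belong to one family, share a seed. Of the 1679 mature miRNAs in RefSeq, 5 others begin with the same 4 bases as miR-218, and 0 of them have a row of the same name in the count files. One of them is miR-493-5p, and the row miR-493, with 8 counts over all libraries, does not say which arm it holds, while the genome alignments have 322 starts at miR-493-5p.

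miR-99a, the nearest, was at 2067, 2697 and 17696 CPM in FCx with indexes 3, 7 and 11 and at 3368, 4684 and 32655 CPM in HP. Its level was highest with index 11 in both regions, as for miR-218, but its lowest level was with index 3. HP over FCx within indexes was 1.63, 1.74 and 1.85 for miR-99a, less than for miR-218. In edgeR with the block and library totals, miR-99a also passed, with a log2 difference of 0.80 (adjusted p = 0.00353).

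For miR-100, HP over FCx within indexes was 1.03, 1.68 and 1.23, for miR-22 it was 0.947, 1.23 and 0.948, and for miR-93 it was 0.786, 1.60 and 1.09. miR-101a had 1.64, 1.14 and 1.08. Index 11 over index 7 in FCx and HP was 8.13 and 5.93 for miR-100, and 5.95 and 4.05 for miR-93. For miR-22 it was 15.7 and 12.1, and for miR-101a 3.20 and 3.03, against 10.3 and 8.02 for miR-218. These miRNAs had their highest level with index 11, as did 20.9% of the 139 miRNAs of at least 100 CPM. Since they were chosen for likeness to miR-218 over these same libraries, this follows largely from the choice. The size of the index range differed among them. In edgeR with the block and library totals none of the 4 passed (adjusted p = 0.556 to 0.969). Of all 431 miRNAs, 4.64% were called higher in HP and 8.35% higher in FCx in that fit. With the block and TMM miR-100 alone passed (log2 difference 0.78, adjusted p = 0.0370), where 12.8% and 5.10% of all did. So few members cannot be told from these shares.

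**Figure D5:**
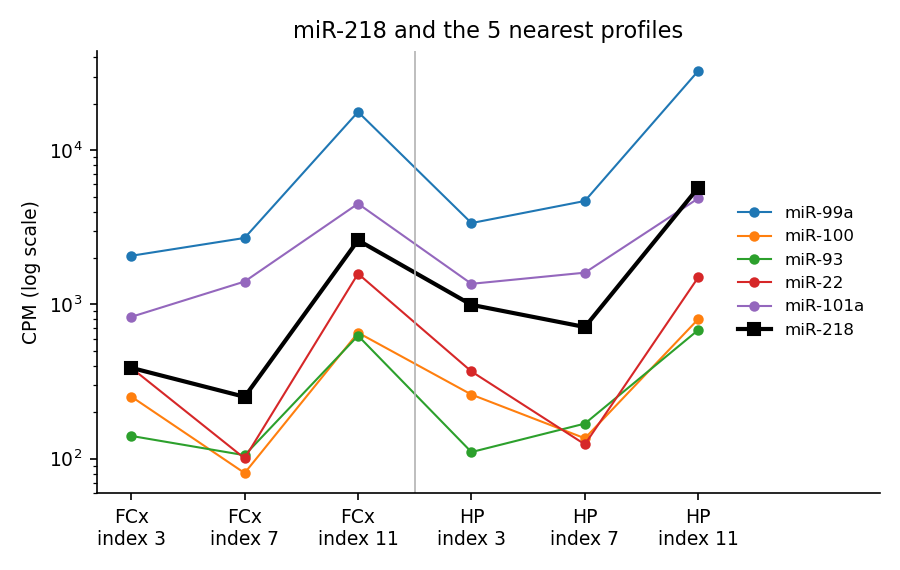
CPM (log scale) of miR-218 (black squares) and of the 5 miRNAs with the nearest profiles (coloured circles) in the 6 libraries, FCx left of the line and HP right of it. All 6 miRNAs are highest with index 11 in both regions, which the choice by likeness over these libraries favours.

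Other neuron-enriched miRNAs were called in both directions. Of 12 such miRNAs, 2 were called higher in HP and 2 higher in FCx in edgeR with the block and TMM, where 12.8% and 5.10% of all 431 miRNAs were, and 1 and 4 with library totals, where 4.64% and 8.35% were. Their median log2 difference was -0.02 with TMM and -0.44 with library totals, against medians of all miRNAs of 0.38 and 0.01. miR-137 was the one higher in HP in both fits (log2 difference 1.24, adjusted p = 0.00263 with TMM, and 0.79, adjusted p = 0.00439 with library totals). miR-132 and miR-212, which come from a shared transcript that neuronal activity induces, were higher in FCx in both fits (log2 differences -1.41 and -1.06 with TMM).

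The most abundant of the list was miR-128, at 196009, 177013 and 208464 CPM in FCx with indexes 3, 7 and 11 and at 63974, 70734 and 110495 CPM in HP. It was higher in FCx with library totals (log2 difference -1.29, adjusted p = 3.75e-15 in edgeR) and not called with TMM (-0.86, adjusted p = 0.0631). Summed over the 12, the level was 294425, 276083 and 267293 CPM in FCx and 160708, 172840 and 156998 CPM in HP, which shows neuronal miRNAs in every library.

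Of 11 miRNAs that lie in introns of genes used by neurons, among them miR-128 and miR-153 of the list before, 3 were called higher in HP and 0 higher in FCx with the block and TMM (12.8% and 5.10% of all miRNAs). With library totals 2 were called higher in HP and 1, miR-128, higher in FCx (4.64% and 8.35% of all). Their median log2 difference was 0.44 with TMM and 0.13 with library totals. The members called in HP in both fits were miR-7a (log2 difference 2.26 with TMM, adjusted p = 7.37e-12, and 1.85 with library totals) and miR-448, which lies in the serotonin receptor gene Htr2c (1.72, adjusted p = 0.00860, and 1.48). Without the block 0 members of either list were called in edgeR, where only 0.464% of all 431 miRNAs were.

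Markers of other cell types were read beside these values. Of 5 miRNAs of the choroid plexus and ependyma, tissues of the ventricles, which border the hippocampus, 3 were called higher in HP with the block and TMM (12.8% of all miRNAs) and 2 with library totals (4.64% of all). Their summed level was 94.5, 65.7 and 50.6 CPM in FCx with indexes 3, 7 and 11 and 247, 273 and 92.5 CPM in HP. The sum was higher in HP within every index, as was miR-218, while miR-211 and miR-449a were not called, with log2 differences of -0.51 and -0.36 with library totals. miR-34c was the most abundant of them, with a mean of 40.2 CPM in FCx against 138 in HP (log2 difference 2.09, adjusted p = 5.50e-09 in edgeR with the block and TMM), and 0 of the 5 were at 0 in a whole region. The part of these cells in the difference of miR-218 was not tested.

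In the remaining lists the counts are read against the same shares of all miRNAs, 12.8% higher in HP with TMM and 4.64% with library totals, and 5.10% and 8.35% higher in FCx. The 4 miRNAs of the Hox clusters, which mark the hindbrain and spinal cord where motor neurons lie, were at 1.23 to 4.60 CPM in sum per library. miR-10a was the most abundant, miR-10b was at 0 in HP and miR-196a at 0 in FCx. miR-196b had no row in the count files and was taken as 0. For the 6 miRNAs of microglia and blood, with sums of 41.4 to 179 CPM and miR-451 as the most abundant, 0 were called higher in HP in either fit and 1 (miR-486) was called higher in FCx with library totals. For the 4 of vessels, with sums of 272 to 839 CPM and miR-143 as the most abundant, 1 was called higher in HP with TMM (miR-126-5p) and 0 with library totals. Of 2 oligodendrocyte miRNAs, miR-219 was called higher in HP with TMM (log2 difference 1.09, adjusted p = 0.00287 in edgeR with the block) and not with library totals (adjusted p = 0.185), and of 3 muscle miRNAs 0 were called.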

How the data were processed

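Counts and genome alignments were used. The authors deposited 12 lane files of raw counts, each the number of reads on a mature miRNA of miRBase 11, and 12 files of alignments to NCBIM37 with other values (start, end and strand). Per the methods, the authors sorted reads by index, trimmed index and 3′ adaptor, removed reads under 14 nt and aligned with Bowtie at up to 2 mismatches. Alignments under 14 nt are nevertheless present.

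Both lanes of a library were summed (391410 to 4956117 counts). edgeR 4.0.16 in R 4.3.3 was run on 431 miRNAs whose counts summed to 2 or more in a region (quasi-likelihood test, TMM, Benjamini-Hochberg, threshold 0.05), without the index as the study did. Once each miRNA's mean over the region was subtracted, libraries of the same index deviated together (r = 0.75, 0.84 and 0.83 across miRNAs). Different indexes gave -0.58 to -0.24, but the subtraction by itself pushes these values down. The index was taken as pairing because of the values within the same index, and the blocked fit is given beside the fit without it. The index test had the region in the model. DESeq2 1.42.0 was an alternative, as were other scalings, filters, lanes and left-out libraries.

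CPM, intervals (95%) and permutation tests were computed in Python 3.11.15 with scipy 1.17.1, and hairpins were read with pysam 0.24.0 and matched to RefSeq. Intervals of ratios take counts as Poisson on the log scale. Named besides miR-218 and its star forms are the 5 nearest profiles, the 2 next miRNAs above and below in each region, members of lists, a miRNA that begins with the same 4 bases (miR-493-5p, with the row miR-493), and the miRNAs first or at least 2-fold higher in HP, the last added after their values were seen. miR-218 and the lists were chosen with earlier results of these data known. Targets and array data were not analysed here.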

Additional observations from a re-analysis of the deposited data

Results flagged for a closer look

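Alignments between the arms, on the opposite strand of a hairpin or elsewhere in a host gene were picked out because they belong to no comparison above. Between the arms of Mir218-2 there were 24 alignments in the HP library with index 7, against 0 between the arms of Mir218-1. On the opposite strand of Mir218-1 there were 4 alignments in the HP library with index 11, all of 22 nt and with the same start, over the star arm, and 0 in the other libraries. The same library has 4 counts of miR-218-1*, and whether these are the same reads was not tested. Antisense to Slit3 outside the hairpin there were 2659 alignments in the FCx library with index 7, of which 91 were at least 20 nt long, and 2071 in the HP library with index 7, of which 84 were. The other libraries had 266 to 956, and over all libraries there were 7284, of which 364 were at least 20 nt long. These numbers are raw and were not scaled to depth, which differed widely. The HP library with index 7 was the deepest, with 5600839 alignments in all, against 2240993 in FCx with index 7. FCx with index 3 had the fewest, 726283, so the raw numbers alone do not set the HP library with index 7 apart. The FCx library with index 7 had the most alignments antisense to Slit3, although every HP library was deeper. The HP libraries with indexes 3 and 11 had 3667294 and 5363837 alignments in all. In FCx with index 11, 747 were antisense to Slit3 among 1620437. The cause was not tested. Groups of 3 libraries are too small for a test of single outlying libraries.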

How the results depend on the processing

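The index effect on miR-218 kept its call in 13 of 13 alternatives (adjusted p = 4.87e-41 to 9.09e-04 in edgeR or DESeq2), and the 264 miRNAs called stayed within 1.5 times. Without a block, miR-218 was called between regions in 0 of 15 alternatives (adjusted p = 0.445 to 1.0 in edgeR). DESeq2's Wald test, counted among these, gave miR-218 no p, so it could not have called it. Leaving out 1 library in turn gave log2 differences from -0.60 to 3.65, and the negative value came without the HP library with index 11, while 3.65 came without the FCx library with index 11. With the replicate block the log2 differences were 1.75 (TMM), 1.33 (library totals) and 1.47 (DESeq2), and 1.56, 1.64 and 1.42 without indexes 3, 7 and 11, all called (adjusted p = 1.19e-08 to 0.0228). The number of miRNAs called between regions was 2, and became 12 in DESeq2, 9 in edgeR's exact test, 8 without a filter, 0 with the pooled lanes (18 at an unadjusted p under 0.05) and 14 with 12 lane files as samples together with the exact test, a common dispersion and library totals. It was 77 with the replicate block, 56 with library totals as well and 41 in DESeq2. It was 0 without the HP library with index 3 or 11 (14 and 17 at an unadjusted p under 0.05 in edgeR), 7 without the HP library with index 7 or the FCx library with index 11, and 30 to 51 with 1 index left out of the blocked fit. The cause was not tested. The mean level depended on the library with index 11, at 320.0 to 1497 CPM in FCx and 854 to 3357 in HP with 1 library left out, and the star share on that with index 7, at 0.356% to 2.53% and 0.320% to 2.59%. The share of 5′ ends stayed between 99.4% and 99.8%. In 6 alternatives for the permutation test of CPM, chosen after seeing the data, the log2 difference was 1.25 to 1.75, and none could have passed 0.05. Depth limits the star forms, since 3 counts correspond to 7.66 CPM in the shallowest library, FCx with index 3. All libraries of a region share 1 RNA pool, so no p speaks of animals.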
